A study of Homo sapiens with 4 samples.

Results

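The transcripts described here encode the cyclins that drive a cell through G1 phase, the kinases they switch on, an inhibitor of those kinases and the protein they inactivate. They are the D-type cyclins *CCND1*, *CCND2* and *CCND3*, the E-type cyclins *CCNE1* and *CCNE2*, the cyclin-dependent kinases *CDK4*, *CDK6* and *CDK2*, the kinase inhibitor *CDKN1B* (p27) and the retinoblastoma gene *RB1*. These 10 genes were listed by name and found by Ensembl identifier among 58522 genes, and 9 of them passed the filter on low counts, which left 16158 genes to test. Ishikawa cells are a long-established human line derived from an endometrial adenocarcinoma. The 2 *CDYL*-sh libraries came from cells given an shRNA against *CDYL*, a chromodomain corepressor of transcription, and the 2 control libraries from cells given a negative control shRNA. Per the methods, cells were transduced with polybrene and selected with puromycin, and the *CDYL* hairpin plasmid carries a ZsGreen reporter and a puromycin resistance gene. All libraries are from this 1 cell line. The labels number the *CDYL*-sh libraries sh1 and sh2, called replicates 1 and 2 here, and hairpins named *CDYL*-sh1 and *CDYL*-sh2 are among those the study designed. Whether these numbers mark different hairpins or repeats of the same one is not stated, nor whether the 2 libraries of a group were grown as separate cultures, so the p-values measure only the spread between these libraries.

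In G1 phase, D-type cyclins bind CDK4 or CDK6 and E-type cyclins bind CDK2. The active kinases phosphorylate the retinoblastoma protein, which then releases E2F transcription factors, and these turn on the genes of S phase. Inhibitors of the p21 and p27 family bind cyclin and kinase together, while those of the INK4 family bind CDK4 and CDK6 alone. In the endometrium, cyclins and p27 are known to change over the menstrual cycle, with epithelial proliferation before ovulation and its arrest afterwards.

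Total counts were between 22341852 and 27451007 in the *CDYL*-sh libraries and between 26981051 and 27688447 in the control libraries. *CDYL* itself stood at 11.4 and 9.70 CPM (counts scaled to a common library size after TMM normalization) in *CDYL*-sh, against 50.4 and 53.0 CPM in control, so the libraries matched their labels. All 8 epithelial markers examined were present, summing to 3751 and 3989 CPM in *CDYL*-sh and 3852 and 4253 CPM in control. The stromal markers *DCN* and *COL3A1* were at 0 in every library, the 7 stromal markers summed to 17.96 and 16.0 CPM in *CDYL*-sh against 23.8 and 26.1 CPM in control, and *CD3E* and *MS4A1* of 6 leukocyte markers were at 0. The leukocyte markers summed to 20.9 and 18.4 CPM in *CDYL*-sh against 8.15 and 12.3 CPM in control, nearly all of it *CD68*. The 4 endothelial markers summed to 7.93 and 8.70 CPM in *CDYL*-sh and 3.77 and 4.26 CPM in control. *PECAM1* made up 5.21 and 6.34 CPM of this in *CDYL*-sh, against 1.62 and 1.96 CPM in control. *VWF* was also higher in both *CDYL*-sh libraries, *CDH5* was lower in both, and *KDR* was at 0.108 CPM or below. In bulk RNA, fewer cells of a kind and less RNA per cell cannot be told apart.

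Of the 9 members tested, *CDK6* was higher, *CCND1* was lower and 7 did not pass the test in *CDYL*-sh cells. The test was edgeR's quasi-likelihood test, *CDYL*-sh against control, with p-values adjusted by Benjamini-Hochberg over all genes tested and a threshold of 0.05. These calls make up 22.2% of the tested members, against 25.7% of all genes tested (13.6% higher and 12.1% lower), so the share of members that changed was near the background. The CPM of the groups did not overlap for 7 of the 9 members, against 64.3% of all genes tested. The median log2 fold change was -0.03 over the members and 0.01 over all genes tested.

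**Figure D1:**
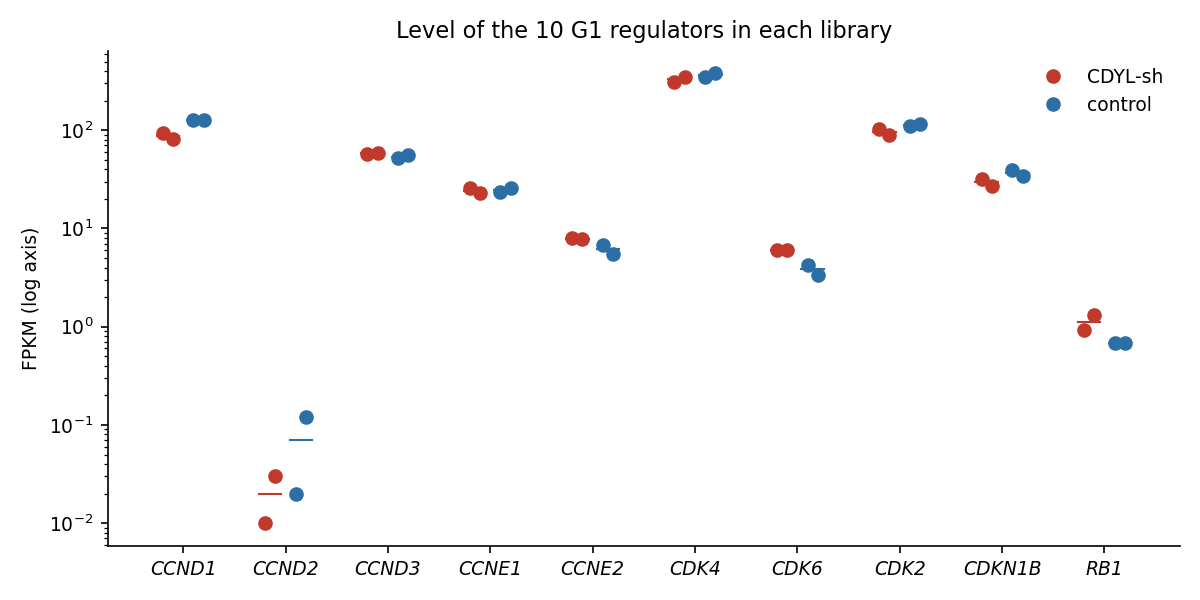
FPKM of each of the 10 genes (log axis) in the 2 *CDYL*-sh libraries (red) and the 2 control libraries (blue), with points for libraries and short lines for group means. *CDK4* lies highest in every library at 308 to 380 FPKM, *CCND1* lies lower in *CDYL*-sh and *CDK6* higher, and *CCND2* lies at 0.12 FPKM or below.

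Levels of different genes were compared as FPKM, which divide reads by gene length. *CDK4* was the most abundant of the 10, at 308 and 351 FPKM in *CDYL*-sh and 352 and 380 FPKM in control, above 97.4% of all tested genes by its mean. *CCND3* and *CDKN1B* followed the leading 3 genes in every library, then *CCNE1*, *CCNE2*, *CDK6*, *RB1* and *CCND2* in that order. Neighbours in this order did not overlap in FPKM within either group, except *CCND1* and *CDK2* in *CDYL*-sh. *CCND1* stood above *CDK2* in both control libraries, at 127 FPKM in each against 111 and 117 FPKM of *CDK2*. In *CDYL*-sh, *CDK2* was the higher within each library, but the ranges overlapped, with 94.5 and 81.4 FPKM for *CCND1* and 104 and 89.1 FPKM for *CDK2*. *RB1* was at the low end, above only 14.7% of tested genes.

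Cyclin D1, the product of *CCND1*, is the D-type cyclin most often amplified or overexpressed in carcinomas. *CCND1* (ENSG00000110092) occupies 69641156 to 69654474 of chromosome 11 (GRCh38, plus strand). Its level was 370.6 and 327.5 CPM in *CDYL*-sh, against 498 and 500 CPM in control. Both *CDYL*-sh libraries were low, and the groups did not overlap. The mean was 349 ± 30.5 CPM (SD, n = 2) in *CDYL*-sh and 499 ± 1.45 CPM (SD, n = 2) in control, 1.43-fold lower in *CDYL*-sh. The log2 fold change was -0.52 (SE, the standard error, 0.11, 95% interval -0.74 to -0.29, adjusted p = 0.00196 in edgeR). It did not pass with limma on log2 FPKM (log2 fold change -0.53, adjusted p = 0.0575 with a pseudocount of 1, within 1.61e-05 to 0.0593 over 17 alternatives). Some reads of *CCND1* were divided with *LTO1*, a gene on the other strand with 497 bp of shared exon sequence. Neither gene's counts were whole, but their sum was whole within 0.02 in all 4 libraries. That sum was 387 and 344 CPM in *CDYL*-sh against 517 and 524 CPM in control, a log2 ratio of -0.51.

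*CCND3* (ENSG00000112576), a D-type cyclin best known from lymphocytes, occupies 41934934 to 42050357 of chromosome 6 (minus strand). It measured 96.5 and 103 CPM in *CDYL*-sh and 87.6 and 95.4 CPM in control. The groups did not overlap but were closer than for *CCND1*, with a log2 fold change of 0.12 (95% interval -0.10 to 0.34, adjusted p = 0.417 in edgeR). *CCND2* (ENSG00000118971), the D-type cyclin of ovarian granulosa cells and pancreatic beta cells, was close to absent, with 1 and 4 counts in the *CDYL*-sh libraries and 3 and 4 counts in the control libraries. It was not tested, and a difference was not detectable at this depth.

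*CCND1* made up a smaller part of the D-type cyclin transcripts in *CDYL*-sh. It held 62.0% and 58.0% of their summed FPKM in *CDYL*-sh, against 71.0% and 69.4% in control, a difference of -10.2 percentage points. The share of *CCND3* was 38.0% and 42.0% in *CDYL*-sh, against 29.0% and 30.5% in control. The shares of both genes separated the groups, but with *CCND2* at 0.0657% or less in every library each share mirrors the other. With 2 libraries against 2, the exact two-sided permutation test cannot go below p = 0.333, which was the p of each of these differences, so the shares are a description. The summed FPKM of the 3 D-type cyclins was 152 and 140 in *CDYL*-sh and 179 and 183 in control.

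CDK4 and CDK6 are close relatives that bind the same D-type cyclins. *CDK6* passed the test and *CDK4* did not, and the difference between their fold changes was not tested. *CDK6* (ENSG00000105810) occupies 92604921 to 92836573 of chromosome 7 (minus strand). It measured 63.3 and 67.7 CPM in *CDYL*-sh, against 36.9 and 31.2 CPM in control. Both *CDYL*-sh libraries lay well above both control libraries. The mean was 65.5 ± 3.08 CPM (SD, n = 2) in *CDYL*-sh and 34.0 ± 4.04 CPM (SD, n = 2) in control, 1.92-fold higher in *CDYL*-sh. The log2 fold change was 0.94 (SE 0.12, 95% interval 0.69 to 1.19, adjusted p = 2.62e-05 in edgeR). *CDK4* (ENSG00000135446), at 57747727 to 57756013 of chromosome 12 (minus strand), measured 484 and 572 CPM in *CDYL*-sh and 561 and 601 CPM in control. The groups overlapped, with a log2 fold change of -0.14 (95% interval -0.38 to 0.10, adjusted p = 0.398 in edgeR). Its counts were divided with *TSPAN31* on the other strand, which shares 1369 bp of exon sequence, and the sum of both gave a log2 ratio of -0.13. *CDK6* held 1.93% and 1.69% of the summed FPKM of both kinases in *CDYL*-sh, against 1.21% and 0.884% in control, so *CDK4* made up nearly all of it in every library.

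The rise of *CDK6* was smaller in FPKM than in reads. It measured 6.05 FPKM in each *CDYL*-sh library, against 4.29 and 3.39 FPKM in control. With limma on log2 FPKM it did not pass, with a log2 fold change of 0.55 (adjusted p = 0.119) at a pseudocount of 1 and 0.65 (adjusted p = 0.112) at 0.1, within 7.68e-12 to 0.119 over 17 alternatives. The count and the FPKM of a gene together imply the mean length over which its reads were assigned. For *CDK6* this length was 10680 and 11050 bases in *CDYL*-sh, against 8646 and 9042 bases in control, and the groups did not overlap. The log2 difference in implied length was 0.29, larger than for 93.3% of 11762 genes with enough reads, whose median absolute difference was 0.04. The other 7 members compared changed by no more than 0.03 on this log2 scale. *RB1* and *CCND2*, under 1 FPKM in control, were not compared. GENCODE release 44 lists a pair of coding *CDK6* transcripts of 11612 and 11663 bases and shorter noncoding transcripts of 386, 558 and 779 bases. Whether the assignment of reads among them moved was not tested.

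**Figure D2:**
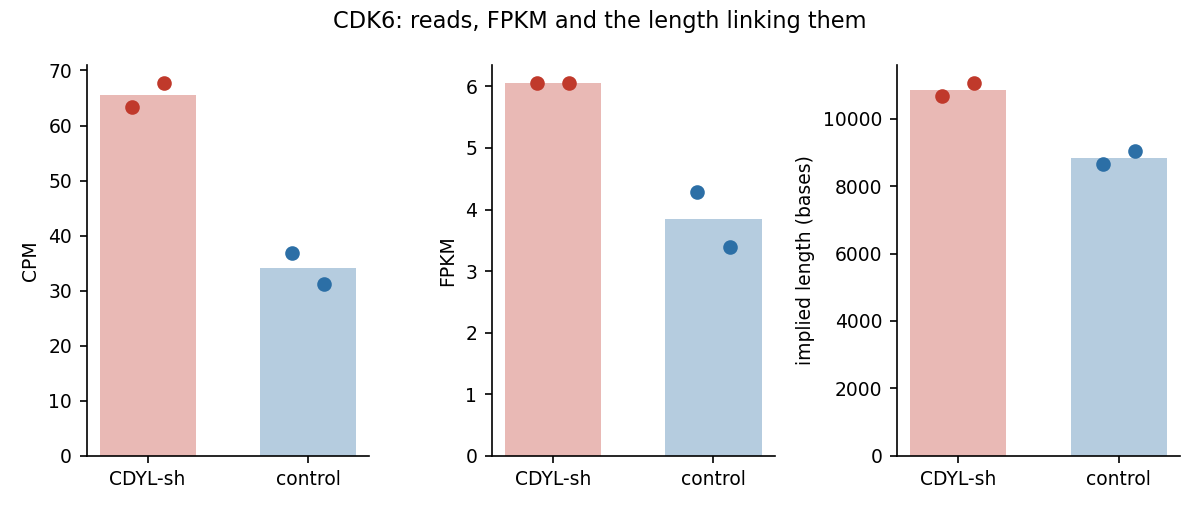
*CDK6* in the 2 *CDYL*-sh libraries (red) and the 2 control libraries (blue), as CPM, as FPKM and as the length in bases implied by the count and the FPKM, with bars for group means and points for libraries. All 3 values lie higher in *CDYL*-sh, with 63.3 and 67.7 CPM against 36.9 and 31.2 CPM in control.

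The bases upstream of the starts of *CDK6* and *CDK4* are shown because *CDK6* was the member that rose and *CDK4* is its close relative that did not pass. Each line is 250 bases upstream of the RefSeq start (GRCh38.p14), read 5′ to 3′ on the gene's strand. Capitals mark the letters GGGCGG, a GC box, or CACGTG, an E-box, on either strand. The *CDK6* window is chr7:92836574-92836823 and the *CDK4* window chr12:57752311-57752560, both on the minus strand, and the *CDK4* start used here lies inside the GENCODE span of the gene.
CDK6: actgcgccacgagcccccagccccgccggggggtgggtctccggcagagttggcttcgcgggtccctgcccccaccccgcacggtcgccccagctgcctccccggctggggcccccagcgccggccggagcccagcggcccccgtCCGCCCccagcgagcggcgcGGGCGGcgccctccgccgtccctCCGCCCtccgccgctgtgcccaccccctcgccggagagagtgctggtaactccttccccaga
CDK4: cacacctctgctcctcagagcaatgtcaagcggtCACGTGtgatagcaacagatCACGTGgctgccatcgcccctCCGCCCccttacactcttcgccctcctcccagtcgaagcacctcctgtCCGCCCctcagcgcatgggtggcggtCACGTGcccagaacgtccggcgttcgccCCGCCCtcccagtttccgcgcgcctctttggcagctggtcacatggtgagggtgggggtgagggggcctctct

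The *CDK6* window has a GC content of 80.0% and holds 3 GC boxes and no E-box. The *CDK4* window has a GC content of 65.6% and holds 3 GC boxes and 3 E-boxes. Of 35116 RefSeq start windows of this length, 42.6% hold a GC box and 6.34% an E-box, and no matches overlap in the windows printed here. RefSeq lists a further *CDK6* start, with neither motif in its window. Windows were found for 6 of the 10 members. *CCNE1* had 7 GC boxes in its window, *CDKN1B* had 1, *RB1* had none at a start inside the gene, and *CCND3* had 5, 2 and 0 at its 3 starts. These matches are descriptions of letters, not of bound sites.

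Cyclins E1 and E2 activate CDK2 late in G1 phase, and *CDK2* is the kinase they share. *CCNE1* (ENSG00000105173), at 29811991 to 29824312 of chromosome 19 (plus strand), measured 33.8 and 32.4 CPM in *CDYL*-sh and 32.3 and 35.1 CPM in control. The *CDYL*-sh libraries lay within the range of the control libraries, with a log2 fold change of -0.03 (95% interval -0.28 to 0.23, adjusted p = 0.899 in edgeR). *CDK2* (ENSG00000123374), at 55966781 to 55972789 of chromosome 12 (plus strand), measured 174.5 and 172.2 CPM in *CDYL*-sh, against 207 and 205 CPM in control. The groups did not overlap, but with a log2 fold change of -0.25 (95% interval -0.46 to -0.04) it did not pass after adjustment (adjusted p = 0.0778 in edgeR). It passed only in the fit with the replicate number as a block, with an adjusted p of 0.00653, within 0.00653 to 0.304 over 17 alternatives.

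*CCNE2* (ENSG00000175305), at 94879770 to 94896678 of chromosome 8 (minus strand), measured 17.5 and 18.04 CPM in *CDYL*-sh, against 16.1 and 12.4 CPM in control. The groups did not overlap, and 1 control library was low. Its log2 fold change of 0.32 (95% interval -0.01 to 0.64) did not pass the test (adjusted p = 0.145 in edgeR). Without control replicate 1 it was 0.51 (adjusted p = 0.0263) and without control replicate 2 it was 0.14 (adjusted p = 0.549), within adjusted p of 0.0263 to 0.730 over 17 alternatives. Reads of *CCNE2* were divided with *INTS8*, an Integrator subunit gene on the other strand with 1629 bp of shared exon sequence. *INTS8* had 846 and 823 expected counts in *CDYL*-sh, against 596 and 476 in control, and was itself higher by a log2 fold change of 0.78 (adjusted p = 0.000636 in edgeR). The sum of both genes was 47.7 and 55.3 CPM in *CDYL*-sh and 37.5 and 30.3 CPM in control, a log2 ratio of 0.60, so the value of *CCNE2* depends on how these reads were split. *CCNE2* held 23.8% and 25.2% of the summed FPKM of the E-type cyclins in *CDYL*-sh, against 22.1% and 17.6% in control, a difference of 4.61 percentage points that was 2.34 without control replicate 2.

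p27, the product of *CDKN1B*, inhibits cyclin E with CDK2 and accumulates in cells that leave the cycle. *CDKN1B* (ENSG00000111276), at 12685498 to 12722369 of chromosome 12 (plus strand), measured 73.8 and 64.7 CPM in *CDYL*-sh, against 90.8 and 79.9 CPM in control. The groups did not overlap. The log2 fold change was -0.30 (95% interval -0.54 to -0.06), which did not pass (adjusted p = 0.0572 from edgeR). It passed in 7 of 17 alternatives, within adjusted p of 0.00657 to 0.421, among them the replicate block (adjusted p = 0.00657), offsets for GC content and length (adjusted p = 0.0116), and the fits that left out control replicate 2 (0.0266) or replicate 1 of *CDYL*-sh (0.0394).

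*RB1* (ENSG00000139687), at 48303744 to 48599436 of chromosome 13 (plus strand), was weakly expressed. It had 114 and 74 counts in *CDYL*-sh and 80 and 59 counts in control, or 4.07 and 3.35 CPM in *CDYL*-sh against 2.87 and 2.22 CPM in control. The groups did not overlap in CPM, but at this depth the log2 fold change of 0.55 had a wide interval (-0.01 to 1.10, adjusted p = 0.142 in edgeR). In FPKM it stood at 0.92 and 1.30 in *CDYL*-sh, against 0.68 and 0.69 in control, so FPKM and CPM ranked the *CDYL*-sh libraries in opposite order.

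**Figure D3:**
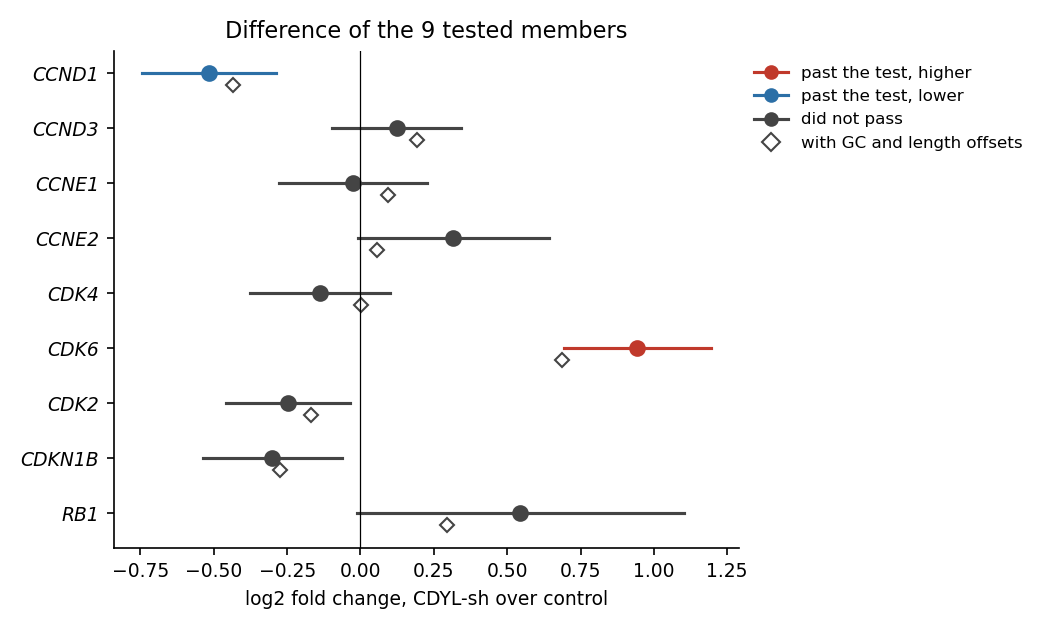
Log2 fold change of the 9 tested members, *CDYL*-sh over control, with 95% intervals from edgeR's quasi-likelihood fit (circles and lines) and the value with offsets for GC content and length (diamonds). *CDK6* at 0.94 and *CCND1* at -0.52 passed the test. The diamonds lie nearer to 0 for *CDK6* at 0.69, *CCNE2* at 0.06 and *RB1* at 0.30. They also lie nearer to 0 for *CCND1* at -0.43, *CDK2* at -0.17, *CDK4* at 0.003 and *CDKN1B* at -0.28. For *CCND3* at 0.19 and *CCNE1* at 0.09 they lie farther from 0.

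The members under 40% GC and those above it lay apart in fold change. The 3 members with a canonical transcript under 40% GC had the highest log2 fold changes, *CDK6* (39.7% GC) at 0.94, *RB1* (37.1% GC) at 0.55 and *CCNE2* (34.6% GC) at 0.32. The other 6 tested members, all above 45% GC, lay between -0.52 and 0.12. Within these groups the order did not follow GC content, since *CCNE2* has the least GC of the first and the smallest log2 fold change in it, and *CCND3* has the most GC of the other 6 and the highest. Over all tested genes under 40% GC, 26.1% rose and 4.04% fell in *CDYL*-sh, with a median log2 fold change of 0.24. From 50% to 55% GC, where *CCND1* lies (50.3% GC), 7.05% rose and 18.6% fell, with a median of -0.11. With offsets for GC content and length, *CDK6* had a log2 fold change of 0.69 (adjusted p = 1.91e-05) and *CCND1* of -0.43 (adjusted p = 0.000343), so both still passed. *CCNE2* then had 0.06 (adjusted p = 0.730) and *RB1* 0.30 (adjusted p = 0.366). The part of GC content in these fold changes was not tested beyond the offsets.

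**Figure D4:**
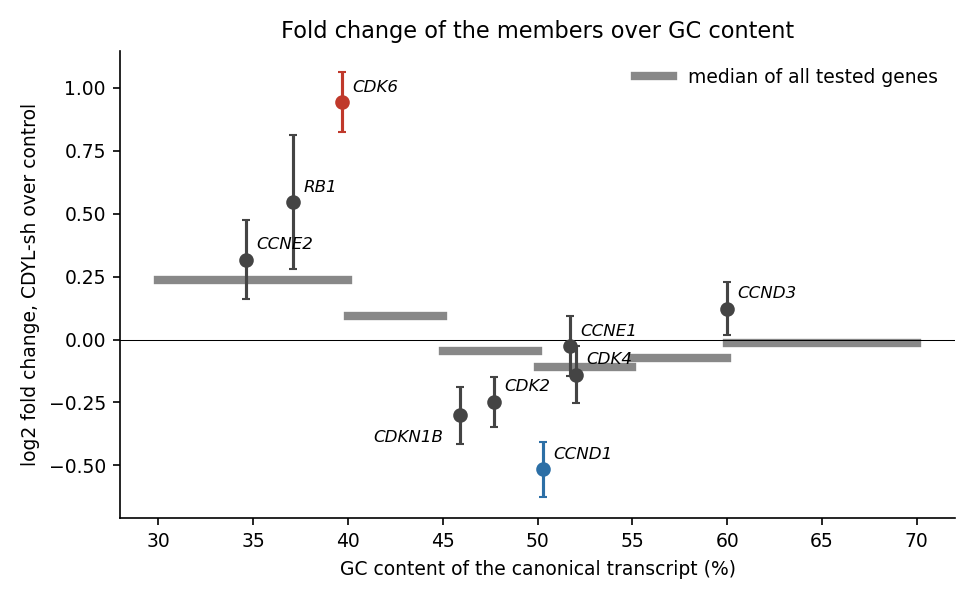
Log2 fold change of the 9 tested members with standard errors over the GC content (%) of their canonical transcripts, with grey bars for the median of all tested genes in each class of GC content (the end classes are drawn from 30% and to 70%). *CDK6* at 0.94 lies well above the 0.24 of genes under 40% GC, and *CCND1* at -0.52 lies below the -0.11 of its class.

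Of 6 other inhibitors of these kinases, 3 rose, 1 fell and 2 did not pass, with a median log2 fold change of 0.36. The calls make up 66.7% of these genes, against 25.7% of all genes tested. *CDKN1A*, which encodes p21, measured 140 and 156 CPM in *CDYL*-sh, against 48.9 and 62.2 CPM in control. Its log2 fold change was 1.41 (SE 0.12, adjusted p = 4.14e-07 in edgeR). The INK4 genes *CDKN2B* (p15) and *CDKN2C* (p18) moved in opposite directions. *CDKN2B* was higher by 0.90 (SE 0.20) on the log2 scale at 9.43 and 8.20 CPM in *CDYL*-sh against 5.06 and 4.37 CPM in control. *CDKN2C* fell to 145 and 159 CPM in *CDYL*-sh, against 229 and 221 CPM in control, a log2 fold change of -0.57 (SE 0.10). *CDKN1C* (p57), an imprinted inhibitor, was higher by 0.45 (SE 0.13), at 33.9 and 42.2 CPM in *CDYL*-sh against 26.2 and 29.4 CPM in control, a call lost without control replicate 1 or *CDYL*-sh replicate 2 (log2 fold change 0.29 without the *CDYL*-sh library). *CDKN2A* (p16), which did not pass and was chosen after its values were seen, measured 421 and 491 CPM in *CDYL*-sh and 425 and 486 CPM in control, with a log2 fold change of 0.00.

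Among 12 relatives of *RB1* and E2F and DP factors, 2 rose, 2 fell and 8 did not pass, with a median log2 fold change of -0.19. This is 33.3% called, near the 25.7% of all genes tested. Transcripts of both pocket proteins related to *RB1* were higher. *RBL1* (p107) measured 15.9 and 17.3 CPM in *CDYL*-sh against 9.48 and 8.97 CPM in control, a log2 fold change of 0.84 (SE 0.16). *RBL2* (p130) measured 29.1 and 29.7 CPM in *CDYL*-sh against 17.9 and 16.5 CPM in control, a log2 fold change of 0.77 (SE 0.13). With offsets for GC content and length *RBL1* had 0.62 and *RBL2* 0.65, and both genes still passed. In each library both were more abundant than *RB1* in CPM and in FPKM, which correct for length. *RBL1* lay at 1.77 to 3.41 FPKM and *RBL2* at 4.37 to 6.85 FPKM, against 0.68 to 1.30 FPKM for *RB1*. The repressor *E2F6* had a log2 fold change of -0.77 (SE 0.15), and *TFDP2*, a partner of E2F factors, one of -0.33 (SE 0.11), a call that was lost on leaving out any of the 4 libraries.

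A list of 9 genes held the CDK-activating kinase, the CDC25 phosphatases and the WEE1 kinases, and also *CDC37*, which is in none of these classes. Of the 9, 1 rose, 1 fell and 7, *CDC37* among them, did not pass (22.2% called, near the 25.7% of all genes tested), with a median of -0.05. *CCNH*, the cyclin of the activating kinase, was higher by 0.39 (SE 0.12), and *CDC25B*, a phosphatase that activates CDK1, had a log2 fold change of -0.50 (SE 0.10). With offsets for GC content and length *CCNH* had 0.20 and did not pass (adjusted p = 0.0987), nor did it without control replicate 1 or either *CDYL*-sh library. Of 16 ubiquitin ligase subunits that act on G1 regulators, 1 rose, 1 fell and 14 did not pass (12.5% called, against 25.7% of all genes tested), with a median of 0.01. *AMBRA1*, the substrate receptor through which D-type cyclins are degraded, fell to 17.3 and 15.2 CPM in *CDYL*-sh, against 35.8 and 38.5 CPM in control, a log2 fold change of -1.19 (SE 0.13, adjusted p = 7.2e-06 in edgeR). *CUL4B*, a cullin scaffold, was higher by 0.59 (SE 0.13). With offsets for GC content and length *CUL4B* had 0.34 and still passed (adjusted p = 0.00997 in edgeR). None of the 5 MuvB core genes, which repress or activate cell cycle genes with pocket proteins or MYBL2, passed in either direction in edgeR, DESeq2 or limma-voom, and 1, *LIN37*, had an unadjusted p under 0.05. Without control replicate 2, 1 was higher, and with offsets for GC content and length 1, *RBBP4*, was lower.

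**Figure D5:**
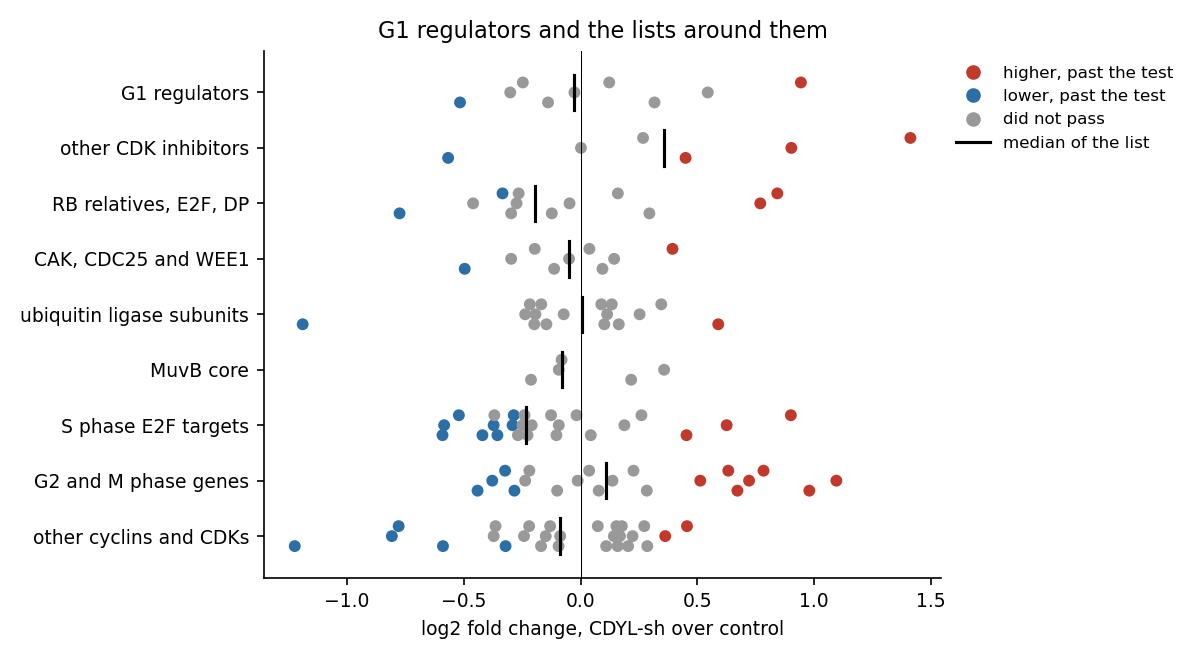
Tested genes placed by log2 fold change (*CDYL*-sh over control) for the G1 regulators and 8 lists around them, coloured red where they rose, blue where they fell and grey where they did not pass, with a black line at the median of each list. *CDKN1A* lies farthest to the right at 1.41, and of the S phase genes 8 are lower and 3 higher.

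Of 24 S phase genes that E2F factors regulate, 3 rose, 8 fell and 13 did not pass (45.8% called, against 25.7% of all genes tested), with a median log2 fold change of -0.23. *MCM2*, a subunit of the replicative helicase, measured 223 and 217 CPM in *CDYL*-sh against 327 and 333 CPM in control, a log2 fold change of -0.58 (SE 0.10). The GINS genes *GINS1* and *GINS4* had log2 fold changes of -0.59 and -0.52, and *CDC45*, which joins them on the helicase, one of -0.42. *POLA1* of DNA polymerase alpha was higher by 0.90 (SE 0.165), *MCM10* by 0.63 and *MCM6* by 0.45. The count of lower genes was 13 with offsets for GC content and length, 14 with the replicate block, 3 without control replicate 1, 2 without *CDYL*-sh replicate 2 and 1 with limma on log2 FPKM. Of 20 genes of G2 and M phase, 7 rose, 4 fell and 9 did not pass (55% called, against the same 25.7%), with a median of 0.11. *TTK*, a kinase of the spindle checkpoint, was higher by 1.10 (SE 0.16), *TOP2A* by 0.98 (SE 0.12), *KIF11* by 0.78 and *CENPF* by 0.72. *CENPF* measured 64.6 and 69.2 CPM in *CDYL*-sh against 49.7 and 31.3 CPM in control, and its log2 fold change was 0.43 without control replicate 2 and 1.08 without control replicate 1, past the test in both. Transcripts of mitotic cyclin B1 (*CCNB1*) and of the factors *MYBL2* and *FOXM1* had log2 fold changes of -0.44, -0.38 and -0.32, and the checkpoint target *CDC20* one of -0.28. The count of lower genes was 0 without control replicate 1 and 1 without either *CDYL*-sh library. The 4 higher genes named have 36.4% to 40.8% GC, *CCNB1* has 41.9%, and *MYBL2*, *FOXM1* and *CDC20* have 55.7% GC or more. With offsets for GC content and length, a fit that called 5597 genes in all, the list again had 7 higher and 4 lower. The log2 fold changes were then 0.86 for *TTK*, 0.75 for *TOP2A*, 0.56 for *KIF11*, 0.57 for *CENPF* and -0.58 for *CCNB1*. Those of *MYBL2*, *FOXM1* and *CDC20* were -0.31, -0.208 and -0.205. The part of GC content in them was not tested further.

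Of 27 other cyclins and cyclin-dependent kinases, 2 rose, 5 fell and 20 did not pass, 25.9% of the list, against 25.7% of all tested genes, with a median of -0.09. *CDK5*, a kinase best known from neurons, measured 15.2 and 17.5 CPM in *CDYL*-sh against 35.3 and 41.0 CPM in control, a log2 fold change of -1.22 (SE 0.14, adjusted p = 7.26e-06 in edgeR). *CCNYL1*, *CCNG2* and *CDK20* had log2 fold changes of -0.81, -0.59 and -0.78, and *CDK20* did not pass without control replicate 1 or *CDYL*-sh replicate 1. *CDK19*, a Mediator kinase, was higher by 0.46 and *CCNG1*, a known p53 target, by 0.36. *CDK19* lost the call without *CDYL*-sh replicate 2, and *CCNG1* without control replicate 2 or either *CDYL*-sh library. *CCNG1* had 0.15 and did not pass with offsets for GC content and length (adjusted p = 0.132).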

How the data were processed

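RNA of 4 Ishikawa libraries, 2 *CDYL*-sh and 2 control, was analysed from the table the authors deposited. Per the paper's methods, TruSeq libraries were read as paired ends and TopHat aligned them to GRCh38.p10, while the submitters' processing notes name RSEM and edgeR as well. The deposited expected counts are estimated reads per gene, divided where genes overlap, and the FPKM were normalized by the authors for length and depth. The annotation release and the use of strand in counting are not given in the sources used here. Symbols matched 98.1% of identifiers.

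Expected counts were rounded, filtered with filterByExpr, normalized by TMM and tested with edgeR 4.0.16 (glmQLFit, glmQLFTest), with no covariate. CPM are rounded counts over TMM library sizes. GENCODE release 44 gave gene positions and the GC content and length of canonical transcripts. Offsets used implied lengths. The offsets for GC content and length were splines with 5 degrees of freedom per library. DESeq2 1.42.0, limma 3.58.1 and other settings were alternatives. Members, lists and tests were chosen with earlier results of these data known. The text names every member, *CDYL*, and up to 4 genes per direction of each list by adjusted p. *CDC37* is named only to describe its list. Of the genes sharing exon sequence with a member, *LTO1*, *TSPAN31* and *INTS8* are named because reads were divided with them. *CDK2* shares 89 bp with *PMEL* and *CDK6* 86 bp with *CDK6-AS1*, both on the other strand. The counts of *CDK2* and of *CDK6* were whole within 0.02 in all 4 libraries. *CDKN2A*, *LIN37* and *RBBP4* were chosen after their values were seen.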

Additional observations from a re-analysis of the deposited data

How the results depend on the processing

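Over 17 alternatives, the 9 tested members gave 153 values, of which 136 kept direction and side of the threshold, 4 lost the call, 9 gained it and 4 turned direction. The 4 that lost it are *CCND1* and *CDK6* with limma on log2 FPKM at either pseudocount, a fit that called 461 and 507 genes in all, against 4157. *CCNE1* ranged from -0.095 to 0.036 without each library in turn, above 0 without control replicate 2 or *CDYL*-sh replicate 2, and was 0.094 with offsets for GC content and length, and *CDK4* turned to 0.003 with those offsets, none of them past the test. Of the 34 other genes named from the lists, with *CDYL*, 89 of 578 values lost the call and none turned direction. Leaving out a library cost these genes 9 calls (control replicate 1), 4 (control replicate 2), 7 (*CDYL*-sh replicate 1) and 10 (*CDYL*-sh replicate 2), most often *TFDP2* and *CDC20*, which lost theirs each time. The count of all genes called was 2296 at an adjusted p under 0.01 and ranged from 2082 to 4006 without each library in turn, lowest without *CDYL*-sh replicate 2. The number of members higher was 0 with limma on log2 FPKM and ranged from 1 to 2 without each library, with 2 without control replicate 1. The number of members lower was 0 with limma on log2 FPKM, 2 with no filter, with at least 10 counts in every library, with edgeR's likelihood ratio test and with the GC content and length offsets, and 3 at an adjusted p under 0.1. It ranged from 1 to 2 without each library, with 2 without control replicate 2 or *CDYL*-sh replicate 1. The replicate block gave 3 members lower. Deviations from the group mean in libraries of the same number had a correlation of 0.03 over all genes tested. With 2 libraries a group, and genes that do not vary independently of each other, this value cannot decide whether the number pairs libraries. The share of *CDK6* among both kinases differed by 1.04 percentage points with counts per mean implied length, against 0.765 with FPKM, and that of *CCND2* by 0.00101, against -0.0245. Without each library in turn the share of *CCND2* differed by -0.0517 to 0.00277 percentage points. The cause of these shifts was not tested.

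With 2 libraries a group no outlier test applies, and genes with few reads such as *RB1* limit what can be seen.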
